A study of Rattus norvegicus with 8 samples.

Results

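The SAPAP scaffold proteins of the postsynaptic density are encoded by Dlgap1, Dlgap2, Dlgap3 and Dlgap4, and the levels of these 4 mRNAs were examined in the orbitofrontal cortex of rats. The members were the protein-coding rows with these symbols, 4 of the 34298 gene rows of the count table, and all 4 were among the 16573 genes that passed the filter on low counts. The rats were male, adult and of the outbred Sprague-Dawley strain, and had arrived at an age of 8 weeks. Each rat received an infusion into the orbitofrontal cortex of 1 µl of siRNA complex in the JetPEI transfection reagent, which held 5 ng of siRNA, and tissue was collected 7 days later. The siRNA was a scrambled control in 4 rats (replicates 1, 3, 4 and 5) and was aimed at circNrxn3, a circular RNA from the neurexin 3 gene, across its backsplice junction in 4 rats (replicates 1 to 4), here called the knockdown group after its labels. All rats thus received the transfection reagent and a siRNA, and untreated rats were not analysed here. The tissue was bulk cortex, so fewer cells of a type and less RNA per cell cannot be told apart, and the libraries were poly-T selected, so they hold mainly linear mRNA and do not show the level of the circle.

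SAPAPs, also called DLGAPs or GKAPs, sit in the middle layer of the excitatory postsynaptic density. Their N-terminal region binds the guanylate kinase domain of PSD-95 and its relatives, which hold glutamate receptors, and their C terminus binds the PDZ domain of Shank, which in turn binds Homer and the actin cytoskeleton of the spine. Dlgap3 (SAPAP3) is the main family member in the striatum, its mRNA is carried into dendrites, and mice without it groom compulsively, a behaviour linked to circuits between the orbitofrontal cortex and the striatum. Dlgap1 (SAPAP1 or GKAP), Dlgap2 (SAPAP2) and Dlgap4 (SAPAP4) encode the other brain members.

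In the rn6 build used by the files, Dlgap1 (ENSRNOG00000016196) lies on chromosome 9 from 118586179 to 119158196, Dlgap2 (ENSRNOG00000012573) on chromosome 16 from 79872323 to 79973877, Dlgap3 (ENSRNOG00000014302) on chromosome 5 from 145257714 to 145304536 and Dlgap4 (ENSRNOG00000020225) on chromosome 3 from 152752091 to 152846118. The Dlgap1 gene spans 572018 bp against 46823 bp for Dlgap3, although the exons of their gene models come to a similar length (4946 bp and 3688 bp). No other gene model of the table overlaps any of the 4 on either strand.

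RefSeq's table for the GRCr8 build, which is not the build of the counts, holds promoter windows (250 bases before to 50 after a start) for 3 of the 4 genes. The windows of Dlgap3, whose level separated the groups, and of Dlgap1 and Dlgap4 are shown because their base composition differs. The windows are chr5:144800015-144800314 for Dlgap3, chr9:117613834-117614133 for the first of 2 listed for Dlgap1, and chr3:165584110-165584409 for Dlgap4, all on the plus strand. Capitals mark matches, on either strand, to any of 5 motifs. The GC box was searched as GGGCGG. The AP-1 site was searched as TGANTCA and overlaps no other motif here. The letters of the core of the cyclic AMP response element were TGACGT. For the CCAAT box the name gives the letters. The TATA box was taken as TATAAA.
Dlgap3: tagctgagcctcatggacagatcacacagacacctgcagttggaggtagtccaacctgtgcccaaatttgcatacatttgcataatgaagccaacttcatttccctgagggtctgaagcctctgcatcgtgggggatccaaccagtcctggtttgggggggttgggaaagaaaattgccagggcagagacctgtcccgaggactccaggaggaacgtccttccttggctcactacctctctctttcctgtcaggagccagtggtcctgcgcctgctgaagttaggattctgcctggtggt
Dlgap1: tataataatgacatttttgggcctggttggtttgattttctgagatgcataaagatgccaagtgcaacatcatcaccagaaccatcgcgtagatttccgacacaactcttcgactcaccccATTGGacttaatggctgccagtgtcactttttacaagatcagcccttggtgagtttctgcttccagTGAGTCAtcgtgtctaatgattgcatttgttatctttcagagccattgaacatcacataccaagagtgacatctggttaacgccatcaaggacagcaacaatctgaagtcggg
Dlgap4: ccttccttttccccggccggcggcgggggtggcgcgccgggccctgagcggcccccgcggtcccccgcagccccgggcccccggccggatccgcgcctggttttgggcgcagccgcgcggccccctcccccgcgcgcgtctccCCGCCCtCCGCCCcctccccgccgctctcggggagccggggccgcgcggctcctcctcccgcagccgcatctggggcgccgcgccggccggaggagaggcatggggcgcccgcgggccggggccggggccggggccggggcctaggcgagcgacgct
The Dlgap4 window was 85.3% G and C with 50 CpG dinucleotides, more CpG than in 99.3% of the 33469 windows in the table. The Dlgap3 window was 54.0% G and C with 4 CpG, and the Dlgap1 window 43.3% with 7, where the median window had 51.7% and 7. The Dlgap4 window held 2 GC boxes, a motif found in 33.1% of all windows. The Dlgap1 window held an AP-1 site (7.33% of all windows) and a CCAAT box (37.5%), and the second Dlgap1 window had 2 overlapping TATA box matches (14.2%). None of the motifs was found in the Dlgap3 window. These matches describe letters in 1 window per start, and the binding of any factor was not measured.

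Dlgap3 was by far the most abundant family member per transcript length. In FPKM, counts scaled by gene model length and library, Dlgap3 averaged 246.9 over the 8 libraries (range 199 to 294), Dlgap4 62.3 (41.8 to 79.7), Dlgap1 33.4 (26.0 to 40.9) and Dlgap2 2.48 (1.42 to 4.25). Among the 22293 protein-coding rows, the mean FPKM of Dlgap3 was above 98.5% and that of Dlgap2 above 55.9%. The order Dlgap3, Dlgap4, Dlgap1, Dlgap2 held in 8 of 8 libraries. The mean log2 difference between neighbours in this order was 1.996 ± 0.256 for Dlgap3 over Dlgap4, 0.89 ± 0.49 for Dlgap4 over Dlgap1 and 3.78 ± 0.39 for Dlgap1 over Dlgap2 (SD, n = 8, log2(FPKM + 0.1)). Each difference had an exact paired sign-flip permutation p of 0.0078 (n = 8), the smallest that 8 libraries allow, and the same value after Benjamini-Hochberg adjustment over the 3 pairs. The order rests on the length of each gene model, and RefSeq lists from 5 (Dlgap2) to 24 (Dlgap1) transcripts per gene, so exons outside a model would shift the level per length.

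**Figure D1:**
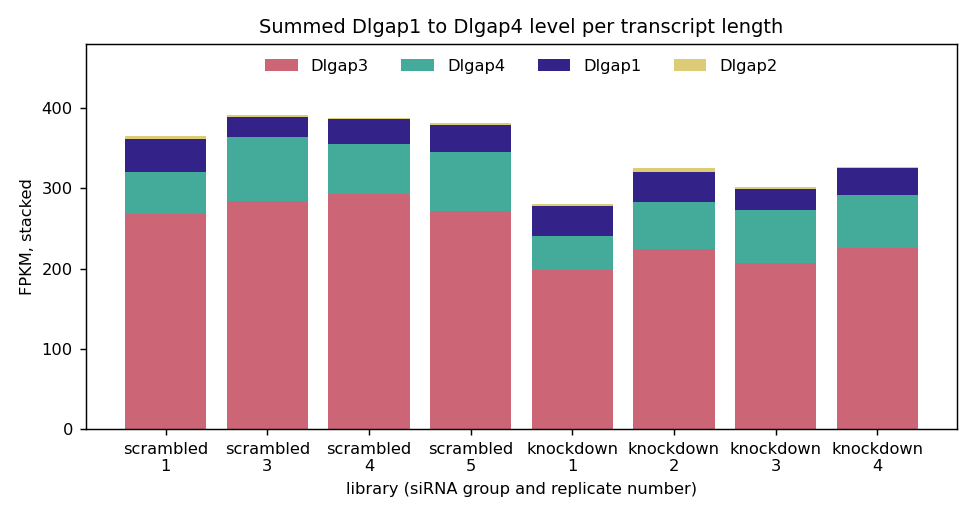
Stacked FPKM (y axis) of the 4 genes in each library (x axis, siRNA group and replicate number), 1 bar per rat. Dlgap3 fills 68.8% to 75.7% of every bar, and the 4 knockdown bars (281 to 327) end below the 4 scrambled ones (365 to 391).

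The family was chosen on the difference between the siRNA groups in these same counts, in which Dlgap3 had stood out, so the group differences of the 4 members are given as a description and no test is attached. Dlgap3 was at 1002, 1046, 1084 and 1009 CPM (counts relative to library size, scaled by TMM factors) in the scrambled rats numbered 1, 3, 4 and 5. In knockdown replicates 1 to 4 it was at 745, 841, 773 and 842 CPM. The highest knockdown rat was thus below the lowest scrambled rat. Means were 1035 ± 37.7 and 800.5 ± 48.9 CPM (SD, n = 4 each), which gave a ratio of 0.773 and a log2 fold change of −0.37 (standard error 0.07). Behind these values stand 21490 to 36383 counts per library, the deepest coverage of the family. The spread between rats of 1 group was small for Dlgap3, with a coefficient of variation of 3.65% in scrambled and 6.11% in knockdown libraries, where the median of the 1975 genes at 100 CPM or more was 8.40% in scrambled libraries. A choice by group difference favours genes of small spread, so this comparison lends the difference no weight.

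Dlgap4, the next most abundant member, was at 176, 264, 205 and 244 CPM in the scrambled rats and at 141, 197, 221 and 219 CPM in the knockdown rats, in the same order. The lowest value of each group came from its replicate 1, and the groups overlapped. The log2 fold change was −0.19 (standard error 0.16).

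Dlgap1 was at 205, 128, 156 and 167 CPM in the scrambled and 190.2, 189.8, 133 and 167 CPM in the knockdown libraries, in the same order of replicates. Replicate 3 was the lowest of both groups, the groups overlapped almost fully, and the log2 fold change was 0.05 (standard error 0.15). Dlgap2, the least abundant member with 148 to 442 counts per library, was at 11.9, 5.04, 4.77 and 9.45 CPM in the scrambled and 9.14, 14.4, 5.33 and 6.93 CPM in the knockdown libraries. Its coefficients of variation were 44.9% and 44.3%, and the log2 fold change was 0.20 (standard error 0.38). Both signs depended on single libraries: the fold change of Dlgap1 was −0.06 without scrambled replicate 3 −0.0086 and −0.0070 without knockdown replicate 1 or 2, and that of Dlgap2 −0.13 without knockdown replicate 2.

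**Figure D2:**
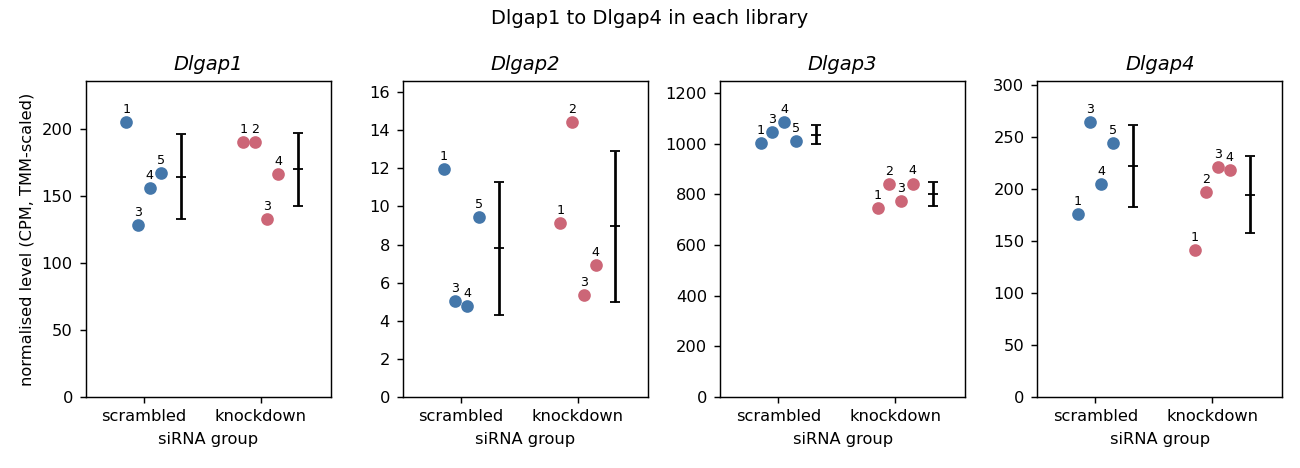
Level of each gene (y axis, TMM-scaled CPM, starting at 0 with a scale of its own per gene) in the scrambled and knockdown groups (x axis), 1 point per rat with its replicate number, and the mean with SD (n = 4) as a bar. The groups are apart for Dlgap3 alone (1002 to 1084 against 745 to 842 CPM).

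No gene passed the threshold of an adjusted p of 0.05 between the groups in the edgeR quasi-likelihood test, 0% of the 16573 genes tested, so no member was called. Without adjustment, 531 genes (3.2%) had p under 0.05 and were lower in the knockdown libraries, and 395 (2.38%) were higher. The limma-voom fit called 0 genes (0%). DESeq2 called 18 of the 4042 genes it adjusted (0.445%), and 12 of 16547 without independent filtering (0.0725%). Groups without overlap and lower in the knockdown libraries, as Dlgap3 was, were found in 274 genes (1.65%), against 302 genes without overlap and higher (1.82%) and 576 in either direction (3.48%). Of the 1975 genes at 100 CPM or more, 63.1% had a log2 fold change below 0 (median −0.05), whereas over all genes tested the share was 48.7% and the median 0.01.

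The share of Dlgap3 in the summed FPKM of the family averaged 73.3 ± 1.84% in scrambled and 69.5 ± 0.85% in knockdown rats (n = 4 each, SD), without overlap. Summed FPKM was 382 ± 11.6 and 309 ± 21.9, and without Dlgap3 it was 102.0 ± 7.54 and 94.4 ± 8.68, with overlap. The share of Dlgap4 was 17.4 ± 2.82% and 18.7 ± 2.97%, that of Dlgap1 8.69 ± 1.90% and 11.0 ± 1.99%, and that of Dlgap2 0.614 ± 0.290% and 0.853 ± 0.354%. These shares follow in part from the Dlgap3 difference by which the family was chosen.

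Between rats of the same group, Dlgap1 and Dlgap2 tended to move together and Dlgap1 and Dlgap4 to move apart. Relations of Dlgap3 to the other members were weaker over the 8 libraries. These relations use each library's log2 CPM minus the mean of its group, so they do not rest on the difference between the groups. Dlgap1 and Dlgap2 had a Pearson r of 0.86 over the 8 libraries (exact permutation p = 0.0139, adjusted p = 0.0694) and a Spearman rho of 0.86 (exact permutation p = 0.0278, adjusted p = 0.0926). The permutations kept libraries within their groups (576 arrangements, 2-sided), and the adjustment was over 10 relations. Without the 2 libraries farthest from the median of Dlgap1, r was 0.82. Dlgap1 and Dlgap4 had r of −0.74 (exact permutation p = 0.0608, adjusted p = 0.152) and rho of −0.81 (exact permutation p = 0.0417, adjusted p = 0.104), with r of −0.62 without the 2 farthest libraries. Neither relation passed after adjustment. Both r lay between the 5th and 95th percentiles of r with Dlgap1 over 8603 protein-coding genes (−0.89 and 0.91). As a ratio of FPKM, Dlgap4 over Dlgap1 ran from 1.28 in scrambled replicate 1 to 3.06 in scrambled replicate 3, and from 1.11 in knockdown replicate 1 to 2.48 in knockdown replicate 3. Dlgap3 had r of −0.14 with Dlgap1, −0.14 with Dlgap2 and 0.47 with Dlgap4 (exact permutation p of 0.745, 0.741 and 0.319). Without the 2 libraries farthest from the median of Dlgap1, Dlgap2 and Dlgap3, in this order, r was −0.55, −0.48 and −0.02. In the scrambled libraries alone, these r were −0.60, −0.92 and 0.15 (n = 4). In the knockdown libraries alone they were 0.16, 0.34 and 0.65 (n = 4).

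The libraries also differed in how well long genes were represented. This was measured as the mean log2 CPM of tested genes over 3486 bp minus that of genes under 1372 bp, each centred over the libraries. The scrambled libraries had −0.05 ± 0.09 and the knockdown ones 0.05 ± 0.09 (n = 4 each, SD), with an exact permutation p of 0.2. Within groups, Dlgap2 followed it with r of 0.97 (exact permutation p = 0.00174, adjusted p = 0.0174) and rho of 0.90 (exact permutation p = 0.00347, adjusted p = 0.0347). Without the 2 farthest libraries, r was 0.96. How many other genes followed the measure as closely was not counted, so this r is not shown to be particular to Dlgap2. Over 8604 protein-coding genes, the 5th and 95th percentiles of r with Dlgap2 were −0.90 and 0.88. Dlgap1 had r of 0.80 and rho of 0.86 (exact permutation p of 0.0399 and 0.0278, adjusted p of 0.133 and 0.0926), with r of 0.85 without the 2 farthest. For Dlgap3, r was −0.21 and rho −0.21 (exact permutation p of 0.632 and 0.559), with r of 0.15 without the 2 farthest. Its r was −0.97 in the scrambled libraries alone and 0.23 in the knockdown ones (n = 4 each). For Dlgap4, r was −0.43 and rho −0.48 (exact permutation p of 0.319 and 0.288), with r of −0.46 without the 2 farthest. After the trend of log2 CPM on gene model length was taken out of each library, Dlgap1 and Dlgap2 still had r of 0.80 and Dlgap1 and Dlgap4 r of −0.78 (exact permutation p of 0.033 and 0.0434, adjusted p of 0.109 each over 10 relations). By rank, Dlgap1 and Dlgap2 had rho of 0.93, which passed after adjustment (exact permutation p = 0.00694, adjusted p = 0.0347), and Dlgap1 and Dlgap4 had rho of −0.74 (exact permutation p = 0.0868, adjusted p = 0.174). Without the 2 libraries farthest from the median of Dlgap1, r of these pairs was 0.73 and −0.71. How many other genes had so high a rho with Dlgap1 was not counted. With this trend removed, Dlgap3 had r of −0.45 with Dlgap1, −0.52 with Dlgap2 and 0.68 with Dlgap4 (exact permutation p of 0.311, 0.191 and 0.101). Without the 2 libraries farthest from the median of Dlgap1, Dlgap2 and Dlgap3, in this order, r was −0.64, −0.69 and −0.19. The r of Dlgap3 with Dlgap4 thus rested on 2 libraries. With the trend removed and all 8 libraries kept, the log2 fold change of Dlgap3 was −0.42, and that of Dlgap1 −0.01.

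**Figure D3:**
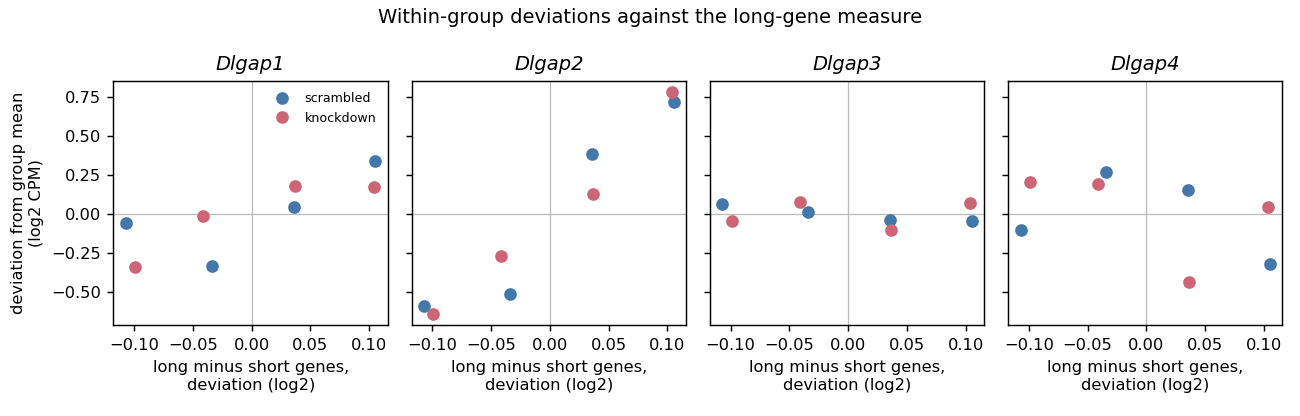
Each library's deviation from its group mean in log2 CPM (y axis) against its deviation in the long-minus-short gene measure (x axis, log2), 1 panel per gene and 1 point per rat. Dlgap2 climbs along the axis (r = 0.97) and Dlgap1 less tightly (r = 0.80), whereas Dlgap3 stays close to 0 throughout.

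The genes whose within-group pattern over the 8 libraries was most like that of a member were taken from 8603 protein-coding genes (8604 for Dlgap2) at a mean of 10 CPM or more, as a description by Pearson r. Nearest to Dlgap3 were Lingo1, a leucine-rich repeat membrane protein of neurons (r = 0.97), Nsmce1 (0.95), the secreted glycoprotein gene Olfm2 (0.94), Ankrd54 (0.94) and Saraf, a regulator of store-operated calcium entry (0.94). Their log2 fold changes between the groups were smaller than that of Dlgap3, at −0.15, −0.10, −0.11, −0.12 and −0.09. Nearest to Dlgap2 were Klhl5 (0.99), Sipa1l1 (0.98), which encodes the postsynaptic Rap regulator SPAR, Rapgef4 (0.98), Rpl7l1 (0.98) and Top1, topoisomerase I (0.98). Dlgap1 was nearest to Clcn4, a chloride and proton exchanger (0.999), Ube2j1 (0.996), Ccdc47 (0.99), Ddx3x, an RNA helicase (0.99), and Nap1l1 (0.99). Dlgap4 was nearest to Dos (0.99), the transcriptional regulators Nacc1 (0.99) and Camta2 (0.99), the kinase gene Wnk2 (0.99) and Gigyf1 (0.99). Close neighbours were more common for Dlgap1 than for Dlgap3: 5% of the genes had r above 0.91 with Dlgap1, against 0.64 with Dlgap3.

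In 6 lists of SAPAP partners, receptors, regulators and dendritic mRNAs, no gene passed the edgeR test. The log2 fold changes lay on both sides of 0. DESeq2 called 1 of these genes, Psd (adjusted p = 0.0363), which is listed only for its dendritic mRNA and not as a partner. Without independent filtering DESeq2 did not call Psd (adjusted p = 0.0982). The counts of genes that passed, given below for each list, are those of edgeR. The 6 lists of scaffold, receptor, regulator and dendritic genes held 57 distinct tested gene models, 29 below and 28 above 0, with a median log2 fold change of −0.01 against 0.01 over all genes tested. Of these, 5 were lower and 0 higher with an unadjusted p under 0.05, and 3 did not overlap between groups and were lower (5 of 57 and 3 of 57, where 3.2% and 1.65% of all genes did so). Their adjusted p in the edgeR test was 0.833 or more for every gene named below.

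Of the 7 guanylate kinase scaffolds that bind SAPAPs or are related to those that do, 4 were above and 3 below 0 (median 0.01), and 0 passed in either direction. Dlg4, which encodes PSD-95, averaged 1315 ± 57.7 CPM in scrambled and 1099 ± 105 CPM in knockdown rats (n = 4 each, SD). The log2 fold change was −0.26 (standard error 0.09). Its values ran from 1260 to 1382 and from 942 to 1167 CPM and did not overlap. Dlg1 (0.17, standard error 0.15), Magi2 (0.33, 0.30) and Dlg2 (−0.14, 0.22) overlapped between the groups.

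Of the 6 tested models of Shank and Homer genes, 3 were above and 3 below 0 (median −0.05), and 0 passed. A second model with the symbol Shank2 was not tested for lack of counts. Shank1, which binds the C terminus of SAPAPs, averaged 895 ± 107 and 748 ± 153 CPM (n = 4 each, SD), and its log2 fold change was −0.26 (standard error 0.15). Homer3 had −0.27 (standard error 0.18), Homer1 0.44 (0.53) and Homer2 0.20 (0.27), all at 21.1 CPM or less in every library. Of 9 other proteins of the complex, 5 were below and 4 above 0 (median −0.01), and 0 passed. Begain, a PSD-95 binding protein, had −0.26 (standard error 0.09). The dynein light chains that bind SAPAP1 had 0.10 (Dynll2, standard error 0.09) and −0.12 (Dynll1, 0.11).

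Of 12 kinases, turnover factors and RNA-binding proteins that act on SAPAPs or their mRNAs, 9 were above and 3 below 0 (median 0.10), and 0 passed, also at an unadjusted p under 0.05. Fmr1, which encodes the RNA-binding protein FMRP, had 0.17 (standard error 0.08), its relatives Fxr1 and Fxr2 0.19 (0.18) and −0.11 (0.10), and the kinase gene Cdk5 −0.09 (0.09). Of 13 glutamate receptor subunits, 6 were above and 7 below 0 (median −0.01), with 0 passing and 0 at an unadjusted p under 0.05. The NMDA receptor subunit genes Grin1, Grin2c and Grin2d had −0.11 (standard error 0.06), −0.22 (0.15) and −0.26 (0.14), and the AMPA receptor subunit gene Gria3 had 0.18 (0.10).

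Of 14 mRNAs known to be carried into dendrites, as that of Dlgap3 is, 11 were below and 3 above 0, with a median of −0.15, and 0 passed in edgeR. Psd, the gene called by DESeq2, which encodes an exchange factor for the GTPase ARF6, averaged 815 ± 35.3 and 669 ± 48.8 CPM (n = 4 each, SD), without overlap, and its log2 fold change was −0.28 (standard error 0.08). Ppp1r9b, which encodes the spine protein spinophilin, averaged 1884 CPM in scrambled rats (1732 to 2082) and 1430 CPM in knockdown rats (1066 to 1666), also without overlap, and its log2 fold change was −0.40 (standard error 0.13). Nrgn, which encodes the calmodulin-binding protein neurogranin, was at 7032 ± 529 and 6239 ± 572 CPM (SD, n = 4 each), with overlap, and its log2 fold change was −0.17 (standard error 0.09). Dlg4, Shank1 and Shank3 of this list are also counted among the scaffolds, and the list was chosen with earlier results of these data known. The list's mean level per library did not separate the groups (0.07 ± 0.13 and −0.07 ± 0.22, exact permutation p = 0.314, n = 4 each). Its summed level, in which abundant genes such as Nrgn weigh most, did not overlap. The sum was 15592 to 16593 CPM in scrambled and 12956 to 15122 CPM in knockdown libraries.

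**Figure D4:**
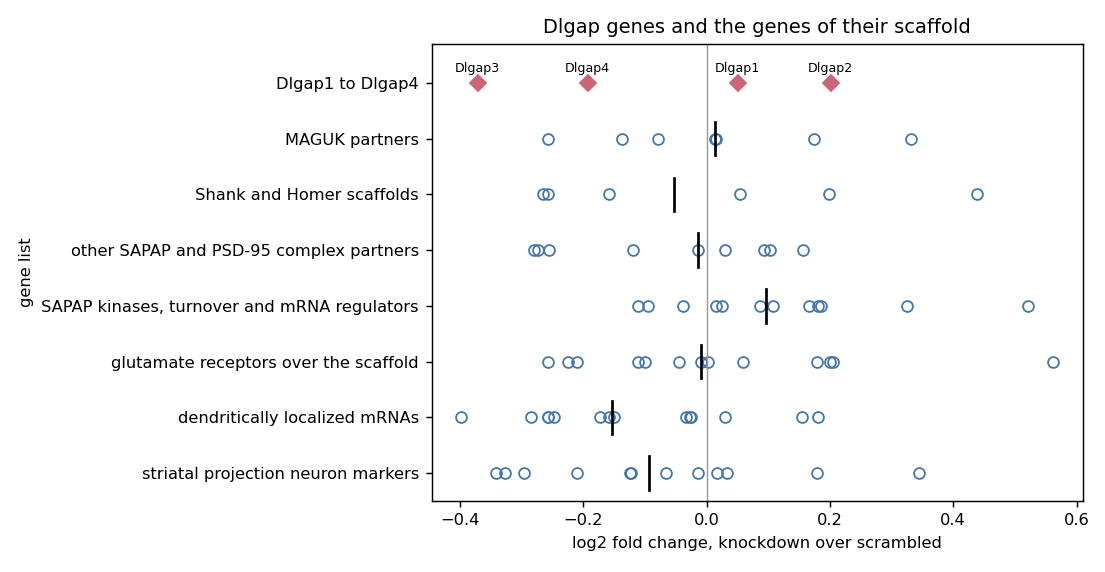
Log2 fold change of knockdown over scrambled (x axis) for the 4 Dlgap genes (filled diamonds) and for every tested gene of 7 lists (open circles, 1 row per list, black bar at the median). Dlgap3, at −0.37, lies near the low end of all rows, and 11 of the 14 dendritic genes (median −0.15) lie below 0.

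Because Dlgap3 is the main SAPAP of the striatum, markers of striatal projection neurons were read beside it. Of 12 markers, 8 were below and 4 above 0 (median −0.09), and 0 passed. Penk, the enkephalin precursor, averaged 167 ± 14.5 and 132 ± 16.6 CPM (n = 4 each, SD), with overlap, and its log2 fold change was −0.34 (standard error 0.10). Rasd2 had −0.12 (0.07) and Adora2a −0.30 (0.20). The dopamine receptor genes Drd1 and Drd2, which define these neurons, were at most at 3.10 and 9.30 CPM in any library. The summed level of the 12 markers was 718 to 864 CPM in scrambled and 661 to 775 CPM in knockdown libraries, with scrambled replicate 3 highest by mean level. Their part in the Dlgap3 difference was not tested.

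Markers of excitatory neurons were present in every library, with Slc17a7, the vesicular glutamate transporter of cortical neurons, at 1767 to 2601 CPM. For the 7 tested excitatory markers the median log2 fold change was 0.04, with a summed level of 2578 to 3129 CPM in scrambled and 2302 to 2887 CPM in knockdown libraries. The 8 inhibitory neuron markers had a median of 0.03 (1133 to 1370 and 1111 to 1298 CPM) and the 8 microglia markers 0.01 (286 to 494 and 263 to 492 CPM). Of the 8 astrocyte markers 7 were below 0 (median −0.13), and their summed level was 2455 to 2721 CPM in scrambled and 2150 to 2418 CPM in knockdown libraries, without overlap. The mean centred log2 CPM of the astrocyte markers did overlap (−0.05 to 0.25 and −0.22 to 0.02, exact permutation p = 0.171, n = 4 each). The 8 oligodendrocyte markers were above 0 (median 0.20, 1990 to 4683 and 2539 to 4119 CPM), and the 6 red blood cell genes below 0 (median −1.15, 608 to 2440 and 359 to 760 CPM). The 6 tested endothelial markers had a median of 0.09 (106 to 123 and 113 to 136 CPM). In these 7 lists 0 genes passed the edgeR test, with 1 astrocyte, 1 oligodendrocyte and 5 red blood cell genes at an unadjusted p under 0.05, and their part in the Dlgap differences was not tested.

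The direction of the Dlgap3 difference was the same in each of the 21 alternatives run. The family was chosen on this difference and the groups did not overlap, so the alternatives, which reuse the same counts, could hardly reverse it. The log2 fold change of Dlgap3 ran from −0.40 to −0.34 when 1 library was left out and from −0.42 to −0.37 under other scalings, filters, tools and units. Without scrambled replicate 3 it was −0.37, where the Dlgap3 level of that library (1046 CPM) lay near its group mean (1035 CPM). The log2 fold change of Dlgap4 stayed below 0, at −0.29 to −0.07 with 1 library left out. It was −0.07 without knockdown replicate 1, the library with the lowest Dlgap4 level, and −0.10 without scrambled replicate 3, the library with the highest.

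**Figure D5:**
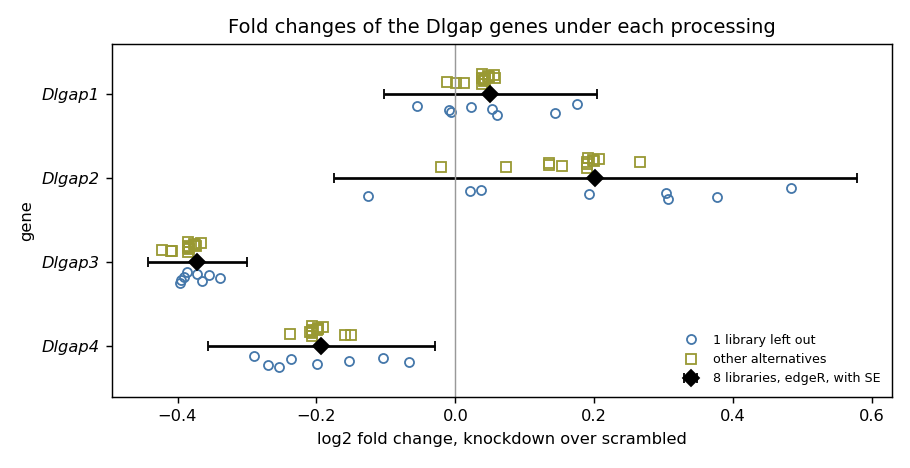
Log2 fold change of knockdown over scrambled (x axis) for each gene (y axis) in the edgeR fit of 8 libraries (diamond with standard error), with 1 library left out (circles) and under the other alternatives (squares). Dlgap3 stays between −0.42 and −0.34, whereas the values of Dlgap1 and Dlgap2 lie on both sides of 0.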

How the data were processed

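Poly-T selected, strand-marked (dUTP) RNA libraries of 8 rats were analysed, 4 per group, grouped and matched to columns by title. The deposited table holds whole-number, unscaled counts per gene. Per the submitters' processing notes, the tools included featureCounts 1.5.0-p3, StringTie 1.3.3b, HISAT2 2.0.5 and fastp, on the rn6 build. Their settings, the counting strand among them, are not given in the sources. The authors' deposited FPKM values equal the counts divided by model length and 1 total per library, a total that followed the size factors of the median-of-ratios method. Total counts ran from 27589883 to 35221782, and every pair within a group differed by more than sampling noise (chi-square over degrees of freedom 23.2 to 47.4). The labels call the samples biological replicates.

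Counts were fitted with edgeR 4.0.16 in R 4.3.3 (filterByExpr with a minimum count of 10, TMM, robust quasi-likelihood test, Benjamini-Hochberg adjustment over 16573 genes). The standard error is the fold change over the square root of F, and log2 CPM used a prior count of 2. Alternatives were other scalings and filters, DESeq2 1.42.0, limma-voom (limma 3.58.1), limma on log2(FPKM + 1) and log2(FPKM + 0.1), a loess length trend removed, each library left out, and a replicate block. Tested on simulated counts for this comparison (16573 genes), edgeR recovered 2.67% of genes changed 1.25-fold and 31.3% of those changed 1.5-fold.

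The members and the 14 lists were chosen with earlier results of these data known. The rule names the 4 members, up to 4 genes per list with the smallest unadjusted p, and the 5 genes with the highest r for each member. Drd1, Drd2, Slc17a7 by level and Shank3 were named outside it. Of 124 list symbols 2 were not found, and some genes that the rule names are not reported here.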

Additional observations from a re-analysis of the deposited data

Results flagged for a closer look

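In the scrambled group, replicate 3 stood apart from the other libraries in 2 marker lists. Its mean centred log2 CPM of striatal projection neuron markers was 0.34, against −0.09 to −0.03 in the other scrambled libraries. Its endothelial marker level was −0.22, against 0.01 to 0.05. These were the 2 cases among 48 groups of 4 libraries examined with Dixon's criterion (critical value 0.829), which chance alone exceeds in about 5% of groups. None of the 4 Dlgap levels or family shares stood apart in this way in either group.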

How the results depend on the processing

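The count of genes called by edgeR was 0 with 8 libraries and ran from 0 to 1 with 1 library left out (1 gene without knockdown replicate 2 and 1 without knockdown replicate 3). DESeq2 called 18 genes, and 12 without its independent filtering, which was added once the data had been seen. The side of the threshold on which Dlgap3 lay depended on the tool: it was past it in both DESeq2 fits (log2 fold change −0.38) and in no edgeR or limma fit. Since the family was chosen on this difference in the same counts, no such call is evidence for it. Its log2 fold change ran from −0.40 to −0.34 with 1 library left out, that of Dlgap4 from −0.29 to −0.07, that of Dlgap1 from −0.06 to 0.18 and that of Dlgap2 from −0.13 to 0.48. Dlgap1 was −0.055 without scrambled replicate 3 and −0.012 with the length trend removed, and Dlgap2 was −0.020 in the libraries numbered 1, 3 and 4 alone, chosen after seeing the data. For these 2 genes the standard error exceeded the fold change, and the cause was not tested. The order of levels per length was kept in the alternatives run. The other pseudocount and unit leave the order within a library as it was. As the order held in 8 of 8 libraries, leaving 1 out had to give the smallest p possible (adjusted p of 0.0156). These p therefore add no support to the order. The list medians moved by less than the spread between replicates, but with 1 library left out 4 of them took both signs: guanylate kinase scaffolds (−0.07 to 0.09), Shank and Homer (−0.12 to 0.07), glutamate receptors (−0.08 to 0.13) and striatal markers (−0.20 to 0.10).

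Replicate numbers 1, 3 and 4 occur in both groups. Deviations of same-numbered libraries from their group means correlated over genes with r of 0.37, 0.30 and 0.087, the first 2 being the highest of all pairs across the groups, whereas scrambled replicate 4 was closer to knockdown replicate 3 (0.22). The labels do not say what a number stands for and 1 of the 3 values was under 0.1, so the numbers were not used as pairs, and whether they mark a shared source is not known. With the replicate block, 0 genes were called. The log2 fold changes were 0.012 for Dlgap1, 0.07 for Dlgap2, −0.41 for Dlgap3 and −0.16 for Dlgap4. Their standard errors were 0.059, 0.224, 0.047 and 0.084 with the block, in this order. In the same libraries without the block they were 0.193, 0.393, 0.091 and 0.209. Depth limits Dlgap2 most, at 148 to 442 counts per library.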

Other observations

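Dlgap5, which shares the family name but encodes a protein of the mitotic spindle, had 3 to 29 counts per library and was no member here. Genes next to 3 of the members on the chromosome had log2 fold changes of −0.14 (Myl9, beside Dlgap4), −0.12 (Cln8, beside Dlgap2) and −0.01 (Tgif1, beside Dlgap1).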
